A study of Homo sapiens with 9 samples.

Results

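The 10 genes described here are the core of the Hippo pathway and its TEAD factors: the co-activators YAP1 and WWTR1 (the gene of TAZ), the DNA-binding factors TEAD1, TEAD2, TEAD3 and TEAD4, the TEAD-binding repressor VGLL4, the kinases LATS1 and LATS2, and NF2 (the gene of merlin). They were taken by symbol, by a rule that uses no measured value although earlier results of these data were known, and all 10 of 10 were found among the 26475 genes of the count table. All 10 also had enough counts to be tested, as did 13784 genes in all. RNA was sequenced from hTERT_RPE1, an established line of human retinal pigment epithelial cells immortalised with telomerase, in 9 libraries, 3 for each of 3 conditions. Control cells carried the empty pLKO_1 lentiviral vector and grew on glass coated with fibronectin. sh_PIP4K2B cells grew on the same coated glass and carried a hairpin against PIP4K2B, a phosphoinositide kinase, with hairpin #1, #2 or #3 in 1 library each. Soft cells carried the empty vector, as in Control, and grew on a fibronectin-coated gel of 2.3 kPa. All cells were grown for 24 h on their surface. The labels of Control and Soft disagree on the vector, which is empty by the titles but a control shRNA by the treatment entry. The titles also number this vector, as pLKO_1, pLKO_2 and pLKO_3, over the 3 libraries of Control and again over those of Soft.

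In the Hippo pathway the adaptor merlin and the upstream kinases activate LATS1 and LATS2, which phosphorylate YAP and TAZ and so keep them in the cytoplasm or mark them for decay. Unphosphorylated YAP and TAZ enter the nucleus and bind TEAD factors, which hold the DNA contact, while VGLL4 competes with them for TEAD. In adherent cells the pathway is known for its response to substrate stiffness, spreading and tension, much of it at the level of protein phosphorylation and location, which RNA counts do not measure. The question for these libraries was whether the RNA of the pathway's own components differed on a soft gel or with PIP4K2B hairpins. Bulk RNA gives 1 level per library, so a change in the share of cells that express a gene and a change in RNA per cell cannot be told apart.

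Total counts per library ran from 19217346 to 24020799, and a count of 3 was between 0.131 and 0.148 CPM (counts relative to library size, scaled between libraries by the TMM method). PIP4K2B, the targeted gene, was at 123, 124 and 120 CPM in Control, 48.4, 40.9 and 36.6 CPM with hairpins #1, #2 and #3, and 119, 122 and 127 CPM in Soft. Of 11 retinal pigment epithelium markers only MITF, OTX2, KRT8 and KRT18 averaged over 1 CPM in Control, while RPE65, RLBP1, TTR and TYR had no count there. Summed over the 11 markers, mostly KRT8 and KRT18, Control libraries held 1970 to 2120 CPM, hairpin libraries 755 to 1160 and Soft libraries 959 to 1010. Single markers went apart. KRT18 fell in sh_PIP4K2B (log2 fold change -1.10, adjusted p = 0.0018, edgeR) and in Soft (-1.31, adjusted p = 1.4e-04, edgeR). KRT8 fell in Soft (-0.98, adjusted p = 0.0033, edgeR). OTX2 rose in sh_PIP4K2B (0.65, adjusted p = 0.0091, edgeR) and in Soft (1.77, adjusted p = 1.4e-05, edgeR). BEST1 passed in Soft (adjusted p = 0.0076, edgeR) on 17, 14 and 16 counts against 1, 7 and 2 in Control, and RLBP1 had 8, 11 and 7 counts in Soft. Of 9 markers of other cell types none averaged over 1 CPM in Control or sh_PIP4K2B. In Soft the endothelial marker PECAM1 was at 4.70, 5.33 and 4.34 CPM against 0.0466, 0.0439 and 0.219 CPM in Control, while CDH5, another endothelial marker, had no count in either, and the summed level of the 9 markers was 5.32 to 6.33 CPM in Soft against 0.512 to 0.786 CPM in Control. GFAP, another of the 9, also passed in Soft (adjusted p = 0.0035, edgeR), on 19, 14 and 12 counts against 0, 2 and 0 in Control. The part of these markers in the results below was not tested. Libraries of a condition are not stated to be separate cultures, so the p-values measure the spread between these libraries only. That spread was wider in sh_PIP4K2B, where each library is another hairpin: the median SD of log2 CPM over all genes tested was 0.36 there, 0.08 in Control and 0.07 in Soft.

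TEAD factors bind the core letters GGAATG, and RefSeq (GRCh38.p14) lists start-site windows of 250 bases before to 50 bases after the start for 8 of the 10 genes, 16 windows in all. GGAATG or its reverse CATTCC was found in 2 of the 16 windows, which is 12.5%, against 14% of all 35116 windows of this length. The windows with it belong to YAP1 and LATS2, a co-activator and a kinase that acts on it, and they are shown for that reason with the core in capitals. The YAP1 stretch is chr11:102110197-102110446 on the plus strand, the 250 bases before the start, with the core beginning at -162. The LATS2 stretch is chr13:21061560-21061589 on the minus strand, 30 bases around the core that begins at base 10 after the start. The NF2 stretch is chr22:29603306-29603555 on the plus strand, shown because NF2 had the lowest fold change of the 10 genes in Soft, and it holds no such core. A match is a run of letters only and not a measured site of binding. The AP-1 letters TGANTCA, which read the same on both strands and were also searched, were in 1 window, of LATS1, and in 7.71% of all windows.
YAP1: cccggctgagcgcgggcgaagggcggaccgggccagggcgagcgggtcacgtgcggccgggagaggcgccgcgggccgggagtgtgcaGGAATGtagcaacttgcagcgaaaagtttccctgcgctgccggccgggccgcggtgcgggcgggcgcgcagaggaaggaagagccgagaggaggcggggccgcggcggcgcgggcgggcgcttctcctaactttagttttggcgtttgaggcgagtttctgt
LATS2: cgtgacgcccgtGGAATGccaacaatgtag
NF2: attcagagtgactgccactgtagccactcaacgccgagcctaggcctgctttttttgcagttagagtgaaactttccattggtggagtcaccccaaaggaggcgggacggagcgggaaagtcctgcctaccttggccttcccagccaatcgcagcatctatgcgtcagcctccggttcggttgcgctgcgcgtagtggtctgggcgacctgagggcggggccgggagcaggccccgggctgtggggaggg

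On the soft gel 6 of the 10 genes passed an adjusted p of 0.01 against Control (edgeR's quasi-likelihood test, adjusted over all genes tested), where 30.6% of all genes tested did. VGLL4, TEAD2 and WWTR1 rose, by 4.17, 3.04 and 1.92 times. NF2, LATS2 and TEAD1 fell, to 0.299, 0.453 and 0.600 of Control. With PIP4K2B hairpins none of the 10 passed, where 5.54% of all genes tested did (edgeR). At an unadjusted p below 0.05 2 of the 10, LATS1 and NF2, passed there, where 33.2% of all genes tested did, and DESeq2 also called 0 of the 10. The median absolute log2 fold change of the 10 was 0.84 in Soft and 0.24 in sh_PIP4K2B, beside 0.49 and 0.30 over all genes tested.

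**Figure D1:**
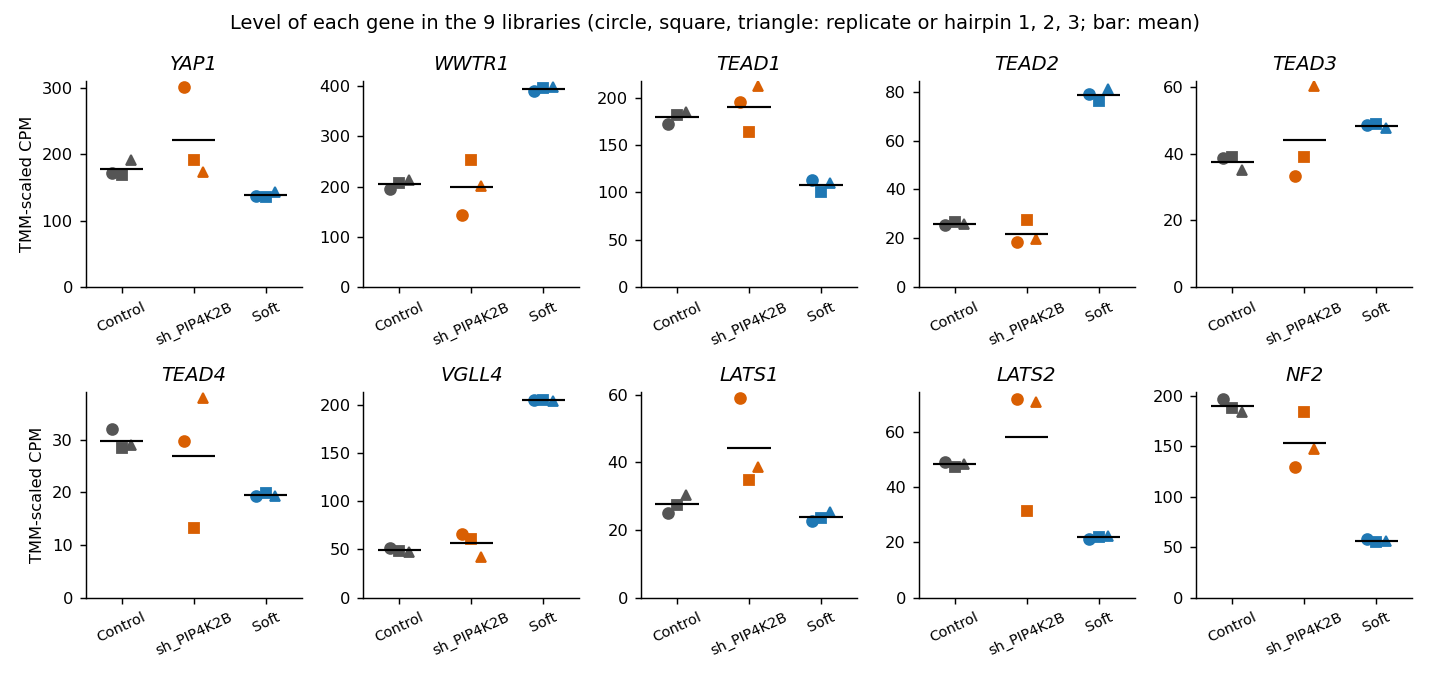
Level of each of the 10 genes in every library, in TMM-scaled CPM on a linear axis from 0, with a circle, square or triangle for replicate (or hairpin) 1, 2 and 3 and a bar at the mean of each condition. The 3 Soft libraries lie close together for every gene and apart from Control for all but LATS1, while the 3 hairpins are spread, most of all for TEAD4 and LATS2.

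The co-activators went apart on the soft gel. WWTR1, on chromosome 3 from 149517235 to 149736714 (GRCh38, minus strand), was at 196, 207 and 214 CPM in Control and at 390, 396 and 398 CPM in Soft. The lowest Soft library was well above the highest Control library. Its log2 fold change was 0.94 (SE 0.18, adjusted p = 0.0023, edgeR). Without Control replicate 1, 2 or 3, or Soft replicate 2 or 3, its adjusted p lay between 0.0103 and 0.0133 (edgeR). YAP1, on chromosome 11 from 102110447 to 102233424 on the plus strand, was at 172, 169 and 191 CPM in Control and at 138, 136 and 143 CPM in Soft. Its 3 Soft libraries were all below the 3 Control libraries, where 79.4% of all genes tested had no overlap of these libraries. The log2 fold change of YAP1, -0.35, did not pass (SE 0.19, adjusted p = 0.15, edgeR), with a 95% interval from -0.78 to 0.07. Its standard error comes from a spread that includes the hairpin libraries. YAP1 passed in 2 of 16 other fits, without hairpin #1 and in the fit of Soft and Control alone, where 70.7% of genes tested passed.

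With the hairpins the pair did not move together. YAP1 was at 302 CPM with hairpin #1, above every other library, and at 191 and 173 CPM with hairpins #2 and #3, close to Control. WWTR1 was at 144, 253 and 201 CPM with hairpins #1, #2 and #3, so hairpin #1 was below and hairpin #2 above the Control range. Neither passed against Control, with log2 fold changes of 0.32 for YAP1 (95% interval -0.10 to 0.75, adjusted p = 0.27, edgeR) and -0.04 for WWTR1 (95% interval -0.44 to 0.35, adjusted p = 0.88, edgeR). The value of WWTR1 was 0.14 without hairpin #1 and 0.03 with scaling by library size only.

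Divided by transcript length, which lets levels of different genes be compared, WWTR1 made up 55.4% ± 1.12 of the summed YAP1 and WWTR1 RNA in Control (SD, n = 3) and 75.3% ± 0.418 in Soft (SD, n = 3). With hairpins #1, #2 and #3 the share was 33.9%, 58.6% and 55.4%. The share in Soft was 19.9 percentage points above Control, with no overlap of libraries (p = 0.1, adjusted p = 0.2 over 6 share comparisons, two-sided exact permutation test). With 3 libraries against 3 this test cannot go below 0.1. In sh_PIP4K2B the difference was -6.09 points (p = 0.9, exact permutation test), and 1.63 points without hairpin #1. The sum of both genes was 73.7 ± 3.67 CPM per kb in Control, 80.7 ± 7.54 in sh_PIP4K2B and 104 ± 1.21 in Soft (SD, n = 3).

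The 4 TEAD genes, which encode alternative DNA-binding partners of YAP and TAZ, changed in different directions on the soft gel. TEAD2, on the minus strand of chromosome 19 (49340595 to 49362457), was at 25.3, 26.6 and 25.8 CPM in Control and at 78.9, 76.2 and 81.3 CPM in Soft, which is a log2 fold change of 1.61 (SE 0.15, adjusted p = 5.1e-05, edgeR). All 3 Soft libraries were far above all 3 Control libraries. TEAD1, on chromosome 11 from 12674421 to 12944737 on the plus strand, was at 173, 182 and 186 CPM in Control and at 114, 100 and 110 CPM in Soft, a log2 fold change of -0.74 (SE 0.12, adjusted p = 8.9e-04, edgeR). Both calls held in all 16 other fits.

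TEAD4 and TEAD3 did not pass in Soft. Their Soft and Control libraries did not overlap, which was so for 79.4% of all genes tested. TEAD4 was at 32.1, 28.4 and 29.1 CPM in Control and 19.3, 19.95 and 19.4 CPM in Soft (log2 fold change -0.61, SE 0.30, adjusted p = 0.12, edgeR). TEAD3 was at 38.7, 38.9 and 35.2 CPM in Control and 48.6, 48.9 and 47.8 CPM in Soft (log2 fold change 0.36, SE 0.19, adjusted p = 0.15, edgeR). Their standard errors come from a spread that includes the hairpin libraries, over which TEAD4 had the widest spread of the 10 genes on the log2 scale. TEAD4 was at 29.7, 13.2 and 37.9 CPM with hairpins #1, #2 and #3. TEAD3 was at 33.2, 38.9 and 60.4 CPM with the same hairpins. So hairpin #2 held the lowest TEAD4 level of all libraries and hairpin #3 the highest TEAD3 level. Without hairpin #2 TEAD4 passed in Soft (adjusted p = 0.0022, edgeR), and without hairpin #3 TEAD3 did (adjusted p = 0.0079, edgeR).

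Against Control none of the TEAD genes passed with the hairpins. The log2 fold changes were 0.08 for TEAD1 (95% interval -0.18 to 0.35), -0.25 for TEAD2 (-0.57 to 0.08), 0.23 for TEAD3 (-0.20 to 0.67) and -0.15 for TEAD4 (-0.82 to 0.52). TEAD2 was at 18.4, 27.4 and 19.7 CPM with hairpins #1, #2 and #3, so it was below the Control range with hairpins #1 and #3 only. TEAD1 was at 196, 165 and 212 CPM, above that range with hairpins #1 and #3 and below it with hairpin #2. The directions of TEAD1 and TEAD3 turned without hairpin #3, to -0.0003 and -0.06, and that of TEAD4 turned to 0.18 without hairpin #2.

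Per length, TEAD1 made up 31.3% ± 1.46 of the TEAD RNA in Control, TEAD4 28.6% ± 1.67, TEAD3 20.6% ± 0.958 and TEAD2 19.5% ± 0.604 (SD, n = 3). The ranges of TEAD1 and TEAD4 overlap in Control, as do those of TEAD3 and TEAD2. In Soft TEAD2 made up 48.1% ± 0.726, TEAD3 21.5% ± 0.625, TEAD1 15.2% ± 0.719 and TEAD4 15.2% ± 0.568 (SD, n = 3). TEAD2 thus went from the lowest share per length to the highest, while TEAD3 moved by 0.909 points. In CPM not divided by length TEAD1 stayed the highest in Soft, at 108 ± 6.83 against 78.8 ± 2.52 for TEAD2 (SD, n = 3). The share of TEAD1 was 16.1 points lower in Soft with no overlap of libraries (p = 0.1, adjusted p = 0.2, exact permutation test). On plain counts, which favour long transcripts, that difference was -23.5 points. With hairpins #1, #2 and #3 the share of TEAD1 was 36.0%, 34.4% and 30.5% (difference 2.30 points, p = 0.3, exact permutation test), and TEAD4 was at 15.1% with hairpin #2 against 30.1% and 29.9% with the others. The sum of the 4 genes was 61.1 ± 0.694 CPM per kb in Control, 60.9 ± 11.9 in sh_PIP4K2B and 75.3 ± 1.41 in Soft (SD, n = 3).

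**Figure D2:**
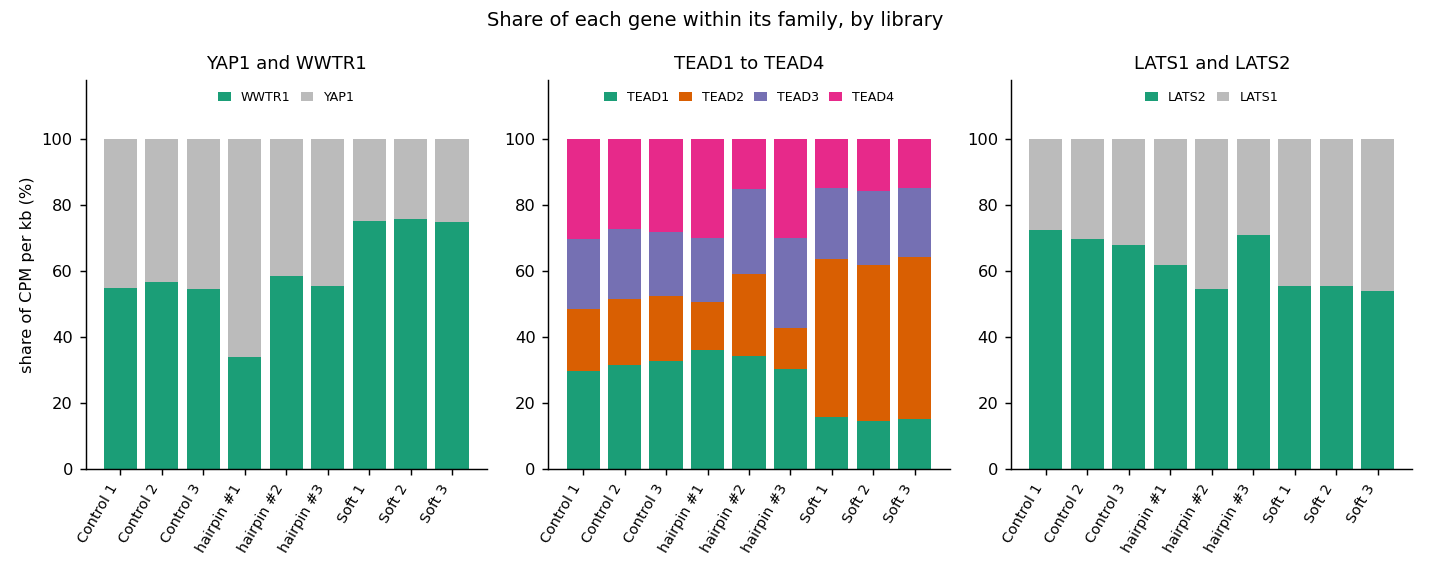
Share of each gene in the summed CPM per kb of its family, in percent, for each of the 9 libraries, with YAP1 and WWTR1 on the left, the 4 TEAD genes in the middle and the LATS pair on the right. In the Soft libraries WWTR1 makes up about 75.3% of its pair and TEAD2 48.1% of the TEAD RNA, while the hairpin libraries differ from each other.

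VGLL4, the repressor that competes with YAP for TEAD, had the largest fold change of the 10 genes in Soft. On chromosome 3 it spans 11556069 to 11771350, on the minus strand. It was at 51.0, 48.5 and 47.9 CPM in Control and at 205, 206 and 205 CPM in Soft (log2 fold change 2.06, SE 0.16, adjusted p = 1.8e-05, edgeR). Over all genes tested 5.17% had a larger absolute fold change. With hairpins #1, #2 and #3 it was at 66.2, 60.5 and 42.5 CPM, the first 2 above and the last below the Control range, and it did not pass (0.20, 95% interval -0.14 to 0.54, adjusted p = 0.39, edgeR). The end of VGLL4 overlaps ATG7, an autophagy gene on the opposite strand: 41.2% of the 75-base stretches of its transcript, 75 bases being the read length, also occur in ATG7 transcripts, none of them on the same strand. The library kit keeps the strand, but whether the counting used it is not given in the sources used here, so reads there could be split between the genes. ATG7 itself was at 42.0 ± 2.04 CPM in Control and 57.2 ± 0.484 CPM in Soft (SD, n = 3), and the part of such reads in the VGLL4 values was not tested. Smaller parts of TEAD2 (9.23%), YAP1 (9.12%), WWTR1 (8.6%), LATS1 (2.46%) and NF2 (0.255%) also occur in other genes. For TEAD2, WWTR1 and LATS1 none of these stretches is on the same strand. Their part in the values of these genes was not tested either. VGLL3, an activating relative of VGLL4, moved the other way, at 54.2, 58.6 and 67.6 CPM in Control and 11.7, 9.57 and 8.81 CPM in Soft (log2 fold change -2.59, adjusted p = 0.0083, edgeR). With hairpins #1, #2 and #3 VGLL3 was at 9.26, 62.3 and 93.7 CPM. VGLL1 had no counts in any library and VGLL2 had none in Control or Soft.

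NF2, whose product merlin recruits LATS kinases to the membrane, showed the largest fall of the 10 genes in Soft. It is a tumour suppressor on chromosome 22 (29603556 to 29698598, plus strand). It was at 197, 188 and 184 CPM in Control and at 58.4, 55.2 and 56.0 CPM in Soft, a log2 fold change of -1.74 (SE 0.13, adjusted p = 2.0e-05, edgeR). No Soft library came near the Control range, and the call held in all 16 other fits. With hairpins #1, #2 and #3 NF2 was at 130, 184 and 147 CPM, so hairpin #2 lay at the lower edge of the Control range and the other hairpins below it. The log2 fold change in sh_PIP4K2B was -0.30 (95% interval -0.59 to -0.01, adjusted p = 0.14, edgeR).

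The kinases LATS1 and LATS2, which phosphorylate YAP and TAZ, differed from each other. LATS2, on the minus strand of chromosome 13 (20973036 to 21061586), was at 49.1, 47.2 and 48.5 CPM in Control and at 21.3, 22.1 and 22.3 CPM in Soft (log2 fold change -1.14, SE 0.26, adjusted p = 0.0063, edgeR). Its Soft libraries all held under 50% of the Control mean, yet the call was lost without any 1 Control or Soft library, with adjusted p from 0.0194 to 0.027 (edgeR), and with scaling by library size only (-1.03, adjusted p = 0.0194, edgeR). LATS1, on the minus strand of chromosome 6 (149658153 to 149718105), was at 24.9, 27.4 and 30.5 CPM in Control and at 22.7, 23.4 and 25.3 CPM in Soft. These ranges overlap, and LATS1 did not pass (-0.21, 95% interval -0.64 to 0.22, adjusted p = 0.39, edgeR).

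With the hairpins LATS1 was higher in every library. It was at 59.0, 34.6 and 38.8 CPM with hairpins #1, #2 and #3, all above the highest Control library, and its log2 fold change of 0.68 did not pass 0.01 (SE 0.19, 95% interval 0.25 to 1.11, adjusted p = 0.038, edgeR). It was the only gene of the 10 whose hairpin and Control libraries did not overlap, where 34.1% of all genes tested had no overlap. LATS2 was at 72.1 and 70.9 CPM with hairpins #1 and #3, above Control, and at 31.5 CPM with hairpin #2, below Control. Its log2 fold change was 0.27 (95% interval -0.31 to 0.85, adjusted p = 0.50, edgeR). LATS2 made up 69.95% ± 2.27 of the LATS RNA per length in Control and 55.0% ± 0.888 in Soft (SD, n = 3), a difference of -15.0 points with no overlap (p = 0.1, adjusted p = 0.2, exact permutation test). With hairpins #1, #2 and #3 the share was 61.8%, 54.7% and 70.8%, a difference of -7.49 points (p = 0.3, adjusted p = 0.36, exact permutation test).

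**Figure D3:**
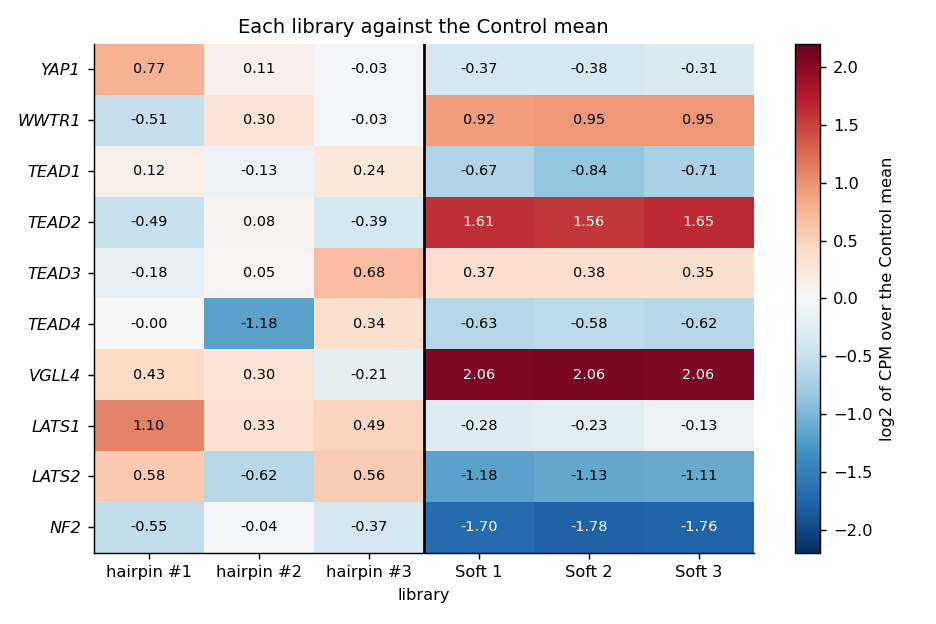
Log2 ratio of each hairpin or Soft library to the Control mean for the 10 genes, as colour (red above, blue below Control) with the value printed in each cell. The Soft columns are alike, while the hairpin columns differ, as for TEAD4 (0.00, -1.18 and 0.34) and LATS2 (0.58, -0.62 and 0.56).

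Taken hairpin by hairpin, 5 genes were above the Control range with hairpin #1, 5 with hairpin #2 and 5 with hairpin #3, and 4, 3 and 3 were below it. The share of all genes outside that range was not counted for single hairpins, so these counts cannot be set against it. Over all genes the median SD of log2 CPM was 0.36 in sh_PIP4K2B and 0.08 in Control. LATS1 was the only gene above that range with all 3 hairpins, and no gene was below it with all 3. In Soft 9 of the 10 genes did not overlap with Control, where 79.4% of all genes tested did not. Without hairpin #2, LATS2 (0.57, adjusted p = 0.0017), NF2 (-0.46, adjusted p = 0.0072) and TEAD2 (-0.44, adjusted p = 0.0069) passed in sh_PIP4K2B (edgeR), 3 of the 10, where 14.4% of genes tested did in that fit. A fit of the Soft and Control libraries alone called 9 of the 10, all but LATS1, where it called 70.7% of genes tested.

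**Figure D4:**
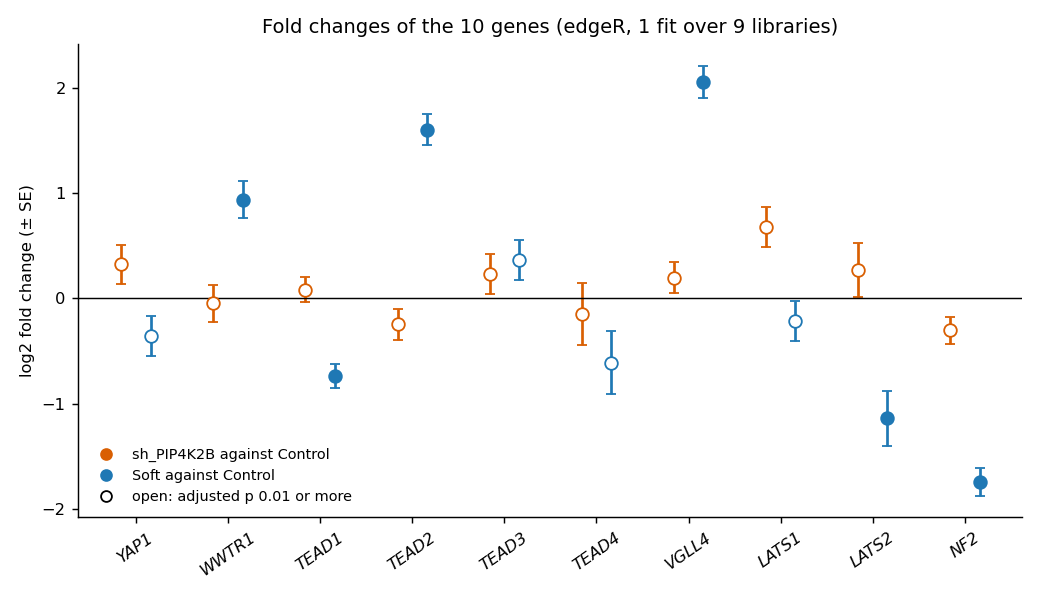
Log2 fold change against Control with its standard error for each of the 10 genes, in sh_PIP4K2B (orange) and Soft (blue), filled where the adjusted p is below 0.01 and open otherwise. In Soft 6 genes are filled, from -1.74 for NF2 to 2.06 for VGLL4, and in sh_PIP4K2B none is.

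Soft and sh_PIP4K2B are both set against the same Control libraries, so their fold changes are given side by side and the difference was tested directly. Soft differed from sh_PIP4K2B in 7 of the 10 genes, where 30.0% of all genes tested differed (edgeR). WWTR1, TEAD2 and VGLL4 were higher in Soft, with log2 differences of 0.99, 1.85 and 1.86. TEAD1, LATS1, LATS2 and NF2 were lower, with -0.82, -0.89, -1.41 and -1.44 (adjusted p from 3.5e-05 to 0.0045 over the 7 genes, edgeR). LATS1 passed here and in neither comparison against Control, and it was lost with scaling by library size only (adjusted p = 0.0101), in a fit of these 2 conditions alone (0.0176), with the replicate block (0.0106) and without Soft replicate 1, 2 or 3 (0.0226, 0.0211 and 0.0161, edgeR). LATS2 was lost in the fit of these 2 conditions alone and without Soft replicate 1, 2 or 3, and WWTR1 was lost in that fit only. YAP1 had -0.68 (adjusted p = 0.016, edgeR), and it passed without hairpin #1 (-0.40, adjusted p = 0.0037) or hairpin #3 (-0.84, adjusted p = 0.0040) and with DESeq2 (adjusted p = 0.0041).

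Levels per length also give the order of the genes within a condition. In Control WWTR1 was highest at 40.8 ± 1.79 CPM per kb, followed by YAP1 at 32.9 ± 2.16 and NF2 at 31.8 ± 1.15, whose ranges overlap (SD, n = 3). TEAD1 and TEAD4 followed at 19.1 ± 0.685 and 17.5 ± 1.16, then VGLL4, TEAD3 and TEAD2 at 13.02 ± 0.443, 12.6 ± 0.704 and 11.9 ± 0.303, and last LATS2 at 8.70 ± 0.171 and LATS1 at 3.75 ± 0.380 (SD, n = 3). Neighbours from TEAD1 to TEAD4 and from VGLL4 to TEAD2 in this order overlap in range, and the LATS kinases were the lowest. With the hairpins YAP1 at 41.1 ± 12.9 and WWTR1 at 39.6 ± 10.8 CPM per kb overlapped, followed by NF2 at 25.8 ± 4.65 and TEAD1 at 20.3 ± 2.58 (SD, n = 3). The ranges of WWTR1 and NF2 also overlapped there, as did those of NF2 and TEAD1. In Soft the order was WWTR1 at 78.3 ± 0.774, VGLL4 at 54.3 ± 0.156, TEAD2 at 36.2 ± 1.16 and YAP1 at 25.7 ± 0.647 CPM per kb (SD, n = 3). TEAD3 followed at 16.2 ± 0.186, then TEAD1 and TEAD4, which overlap, at 11.5 ± 0.725 and 11.4 ± 0.213 CPM per kb (SD, n = 3). NF2 went from the third place to the eighth, at 9.50 ± 0.280 CPM per kb, above LATS2 at 3.95 ± 0.101 and LATS1 at 3.23 ± 0.178. These levels use 1 canonical transcript length for each gene, and a switch between transcripts of a gene was not measured.

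Another 77 genes act in the pathway on either side of these 10, and 71 of them were tested. In Soft 22 were lower and 6 higher at an adjusted p below 0.01, which is 39.4% of 71 beside 30.6% of all genes tested, with a median log2 fold change of -0.37 beside 0.01 over all genes tested (edgeR). In sh_PIP4K2B 4 passed, 3 higher and 1 lower, which is 5.63% beside 5.54% of all genes tested, with a median of 0.08 beside 0.05. The share that passed in sh_PIP4K2B was at that of all genes. The fit of all libraries called 28 of the 71 in Soft beside 4217 of all genes. Without 1 Control library 12 to 14 of the 71 passed in Soft, beside 2506 to 2721 of all genes. In sh_PIP4K2B 0 of the 71 passed in those fits, beside 66 to 161 of all genes. Without 1 Soft library 10 to 14 passed in Soft, beside 2536 to 2622 of all genes.

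Among 16 tested kinases and activators above or beside LATS, 4 fell and 1 rose in Soft, which is 31.2% beside 30.6% of all genes tested, and none passed in sh_PIP4K2B. The count in Soft is thus near that of all genes. MOB1B and MOB1A, co-activators of LATS, fell by 1.13 and 0.88 on the log2 scale (adjusted p = 0.0014 and 0.0019, edgeR). MAP4K2, a kinase that can activate LATS, rose to 20.6 ± 2.12 CPM from 10.2 ± 0.286 CPM in Control (SD, n = 3, log2 fold change 1.02, adjusted p = 4.0e-04, edgeR). Of 13 tested scaffolds and adaptors 5 fell and 3 rose in Soft (61.5% beside 30.6%) and none passed in sh_PIP4K2B. AMOTL2, an angiomotin that binds YAP, was at 222 ± 9.04 CPM in Control and fell to 73.9 ± 1.39 CPM (SD, n = 3, -1.59, adjusted p = 2.1e-05, edgeR). RASSF5, a binding partner of the upstream kinases, was at 2.35 ± 0.171 CPM in Control and rose to 7.26 ± 0.518 CPM (SD, n = 3, 1.62, adjusted p = 6.4e-05, edgeR). RASSF2 had 3, 5 and 1 counts in Control and 11, 17 and 24 counts in Soft, so it passed (adjusted p = 0.0084, edgeR) on very few reads.

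Of 8 inhibitors of LATS or SAV1, 2 rose in sh_PIP4K2B and 2 fell in Soft, which is 25% in each beside 5.54% and 30.6% of all genes tested, so the count in Soft is not above that of all genes. AJUBA, a LIM protein that binds and inhibits LATS, was at 85.8, 78.7 and 77.9 CPM in Control and rose to 147, 125 and 132 CPM with hairpins #1, #2 and #3 (0.74, SE 0.10, adjusted p = 0.0018, edgeR). NUAK2, a kinase that antagonises LATS signalling, was at 15.6, 12.2 and 21.9 CPM against 6.94, 5.53 and 5.51 CPM (1.47, SE 0.22, adjusted p = 0.0032, edgeR). Both genes were above every Control library with each hairpin, and neither passed in Soft (-0.24 and -0.28). There the ubiquitin ligases WWP1 and ITCH fell instead, by 0.54 and 0.47 on the log2 scale (adjusted p = 0.0095 and 0.0044, edgeR).

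Of 15 genes of STRIPAK, the phosphatase complex that dephosphorylates the kinases upstream of LATS, 5 fell in Soft (33.3% beside 30.6% of all genes tested, a share near that of all genes), with STK26 (-0.78), MOB4 (-0.68) and FGFR1OP2 (-0.62) the lowest of them. SIKE1, a STRIPAK adaptor, rose in sh_PIP4K2B (0.78, adjusted p = 0.0022, edgeR) and fell in Soft (-0.48, adjusted p = 0.0058, edgeR). No other gene of the 15 passed in sh_PIP4K2B (6.67% passed beside 5.54% of all genes tested). Of 8 tested polarity proteins and atypical cadherins 3 fell and 2 rose in Soft (62.5% beside 30.6%), among them MPP5 (-1.21, adjusted p = 1.5e-04), the giant cadherin FAT1 (-1.09, adjusted p = 0.0058) and INADL (0.83, adjusted p = 0.0060, edgeR). Of 10 tested genes whose proteins bind or degrade phosphorylated YAP and TAZ 1 passed in sh_PIP4K2B (10% beside 5.54%) and 2 in Soft (20% beside 30.6%). YWHAH fell in both sh_PIP4K2B (-0.69, adjusted p = 0.0048) and Soft (-0.65, adjusted p = 0.0014), and BTRC, a subunit of a ubiquitin ligase, fell in Soft (-0.41, adjusted p = 0.0066, edgeR). Without Control replicate 1, 2 or 3 none of the 4 pathway genes called in sh_PIP4K2B passed. Of all genes 122, 66 and 161 passed in those fits, against 763 in the fit of all libraries (edgeR).

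**Figure D5:**
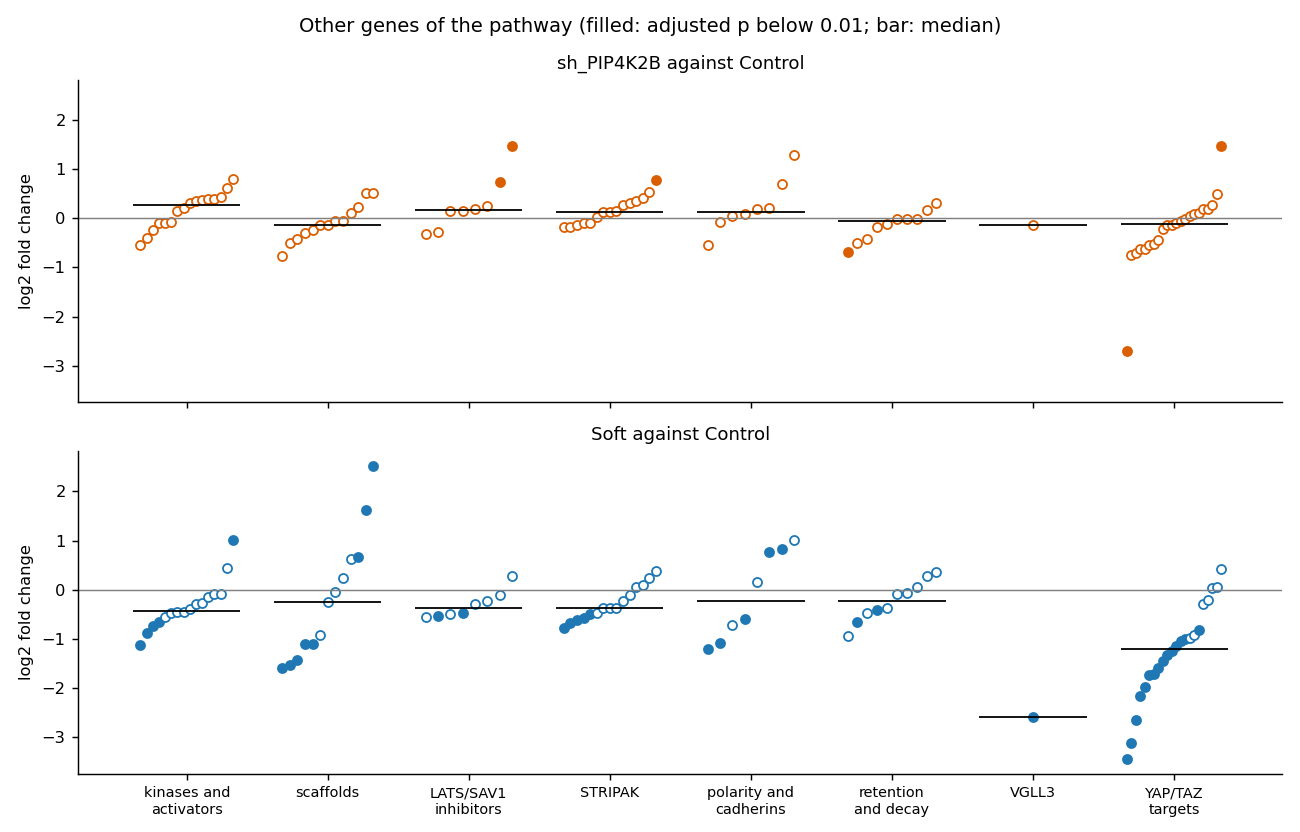
Log2 fold change against Control of each tested gene of the other pathway lists and of the YAP/TAZ target list, sorted within a list, in sh_PIP4K2B (top) and Soft (bottom), filled where the adjusted p is below 0.01, with a bar at each median. In Soft the medians of all lists lie below 0, at -1.20 for the targets, and VGLL3, alone in its list, is at -2.59.

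The RNA of YAP/TAZ target genes, which serve as a readout of the pathway, stood beside these values. Of 22 target genes 15 fell and 0 rose in Soft (68.2% beside 30.6% of all genes tested), with a median of -1.20 beside 0.01 over all genes tested, led by ANKRD1 (-3.44), CTGF (-3.11) and F3 (-2.65, edgeR). In sh_PIP4K2B IGFBP3 fell (-2.69) and NUAK2 rose (1.47), which is 9.09% beside 5.54% of all genes tested (edgeR). The median was -0.12 beside 0.05, and the other 20 did not pass. CTGF came close (-0.74, adjusted p = 0.014, edgeR), with hairpins #1, #2 and #3 leaving 45.6%, 63.6% and 70.4% of its Control mean. Each hairpin also left F3, CCDC80 and DOCK5 below every Control library, while AXL lay above. Such a lack of overlap was seen in 34.1% of all genes tested. The list includes LATS2, AMOTL2, PTPN14 and NUAK2, which are feedback regulators of the pathway counted above as well.

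For each gene called in Soft the 3 genes with the most similar pattern over the 9 libraries were listed by Pearson's r of log2 CPM, as a description. For VGLL4 they were MOXD1, NUCB1 and LOC401052, all with r of 0.996 or 0.997, and for NF2 they were SERPINB7, PVR and XPO6, with r of 0.997, 0.997 and 0.996. For TEAD2 they were P2RX6, JUP and RASSF4, with r of 0.998, 0.996 and 0.994, and for WWTR1 STK16, LINC01137 and CRISPLD2, with r of 0.999, 0.997 and 0.994. TEAD1 was closest to FAM35A, TIMM23B and SYDE2 (r of 0.996, 0.996 and 0.995), of which FAM35A and TIMM23B have near-identical copies elsewhere in the genome. LATS2 was closest to KLC1, FBXO45 and JMJD6 (r of 0.994, 0.989 and 0.986). The 9 points share 3 conditions, and the Soft libraries lie apart from the rest in each of these patterns.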

How the data were processed

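The members and gene lists were chosen with earlier results of these data known, and the lists were written from general knowledge. The authors prepared stranded mRNA libraries (hTERT_RPE1, 9 libraries), sequenced paired reads of 75 nt and aligned them to GRCh38/hg38 with STAR; the submitters' processing notes also name Salmon. The annotation and the use of strand are not given in the sources used here. The deposited file holds expected counts per gene, neither scaled nor pooled, which were rounded to whole numbers. Totals were 19217346 to 24020799 per library, and p-values cover the spread between libraries only. Genes passing filterByExpr went into the quasi-likelihood F test of edgeR 4.0.16 under R 4.3.3 (TMM scaling, 1 fit of 9 libraries, Benjamini-Hochberg adjustment, threshold 0.01). The standard error was taken from the F statistic and 95% intervals from the t distribution of the fit. Levels are TMM-scaled CPM, divided by the canonical GENCODE 44 transcript length for CPM per kb. Shares were compared by two-sided exact permutation tests. Named genes are the 10 members, PIP4K2B, the VGLL genes, per list and comparison the 3 largest called fold changes, and 3 genes of the most similar pattern; SIKE1 in Soft, the cell markers and ATG7 were added after their values were seen. Alternatives were 2 filters, 2 scalings, DESeq2 1.42.0, fits of 2 conditions, a replicate block, 2 thresholds and leaving out each library. The scripts were tested on simulated data.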

Additional observations from a re-analysis of the deposited data

Results flagged for a closer look

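The effects of the soft gel and of the PIP4K2B hairpins, each against the same Control libraries, were compared directly. They differed for 7 of the 10 genes, where 30.0% of all genes tested differed. The log2 differences, Soft minus sh_PIP4K2B, were 0.99 for WWTR1, -0.82 for TEAD1, 1.85 for TEAD2, -0.89 for LATS1, -1.41 for LATS2, -1.44 for NF2 and 1.86 for VGLL4, at an adjusted p below 0.01 (edgeR). The Soft and hairpin libraries did not overlap for 8 of the 10 genes, which are these 7 and YAP1. The share of all genes without overlap was not counted for this comparison. Among 16 alternatives the LATS1 difference was past an adjusted p of 0.01 in 10, that of LATS2 in 12 and that of WWTR1 in 15. The differences of TEAD1, TEAD2, NF2 and VGLL4 were past it in all 16.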

How the results depend on the processing

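Counts of calls are given for sh_PIP4K2B and Soft, each against Control, and then for Soft against sh_PIP4K2B, with 763, 4217 and 4135 of all genes, 0, 6 and 7 of the 10 genes and 4, 28 and 29 of the other pathway genes in the fit reported. With DESeq2 1996 of all genes and 15 other pathway genes were called in sh_PIP4K2B. Fits of only the 2 conditions compared called 5, 9601 and 2183 of all genes, 0, 59 and 18 other pathway genes, and 4 of the 10 genes in Soft against sh_PIP4K2B; these fits drop 3 libraries and with them their spread. The titles number the empty vector from 1 to 3 in Control and in Soft alike, but no label states that same-numbered libraries were paired. Same-numbered libraries did not deviate together (r from -0.115 to 0.039). With the replicate block 295 of all genes and 2 other pathway genes were called in sh_PIP4K2B and 18 other pathway genes in Soft, and the block changed 1 call among the 10 genes, that of LATS1 in Soft against sh_PIP4K2B (adjusted p = 0.0106). At a threshold of 0.05 the counts were 2375, 6498 and 6372 of all genes, 16, 43 and 44 other pathway genes and 1 of the 10 in sh_PIP4K2B. At 0.001 they were 90, 1918 and 1804 of all genes, 0, 9 and 18 other pathway genes and 4 of the 10 in Soft against sh_PIP4K2B. Leaving out 1 library gave 66 to 2013, 2506 to 6373 and 2350 to 5374 of all genes, 0 to 3, 4 to 7 and 5 to 9 of the 10 genes, and 0 to 13, 10 to 43 and 18 to 38 other pathway genes. Over all genes the fewest came without a Control or Soft library and the most without a hairpin library. The cause was not tested.

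Leaving out 1 library, WWTR1 in sh_PIP4K2B ran from -0.25 to 0.14, TEAD1 from -0.0003 to 0.18, TEAD3 from -0.0628 to 0.40, TEAD4 from -0.48 to 0.18, and TEAD3 in Soft against sh_PIP4K2B from -0.0479 to 0.41. WWTR1 in sh_PIP4K2B was 0.0275 with scaling by library size only, which moved the median of all genes in Soft from 0.01 to 0.12 and the share of higher calls there from 51.7% to 62.9%. The share of WWTR1 in its pair differed by -10.8 to 1.63 points in sh_PIP4K2B without 1 library, and the share of TEAD1 by -23.5 points in Soft on plain counts. NF2, VGLL4, TEAD1 and TEAD2 in Soft kept direction and call in all 16 alternatives that refit the genes.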
